A study of Homo sapiens with 32 samples.

Results

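The question was whether cells that have lost IGF2BP3 mount a weaker transcriptional response to endoplasmic reticulum stress, and whether particular genes depart from the response as a whole. It was addressed with 20 of the 32 libraries of the study, all from HCT116, a line derived from a human colorectal carcinoma. Every line carried the Tet-OsTIR1-PURO genotype, a doxycycline-inducible OsTIR1 transgene, so the controls shared it with the knockouts. The 4 groups were parental cells in DMSO (4 libraries), parental cells in tunicamycin (4), IGF2BP3 knockout cells in DMSO (6) and IGF2BP3 knockout cells in tunicamycin (6). Tunicamycin was given at 5 µg/mL for 4 h, and DMSO at 1:1000 was the control. The parental groups held 2 samples with 2 replicates each. The knockout groups held the single-cell clones A3, D12 and E4 with 2 replicates each, so each clone is 1 line grown from 1 sorted cell. The members were therefore 10 pairs of a tunicamycin and a DMSO library with the same line and replicate number, 4 parental and 6 knockout. The labels do not say whether replicates were separate cultures, so p-values measure the spread between these samples. In the tests per gene and over pairs the 2 replicates of a line counted separately, though genotype differs only between lines. Those p-values can therefore be too small.

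Tunicamycin blocks N-linked glycosylation, and glycoproteins then misfold in the endoplasmic reticulum. Cells answer with the unfolded protein response (UPR), which has 3 arms. ATF6 is cleaved into a transcription factor that raises chaperone genes. IRE1 (ERN1) splices XBP1 mRNA, which then encodes a factor for folding, transport and degradation genes. PERK (EIF2AK3) slows translation and allows ATF4 and CHOP (DDIT3) to be made, which raise amino acid supply and death genes. IGF2BP3 is a cytoplasmic RNA-binding protein of an oncofetal family that affects the stability and translation of its target mRNAs. Background of this kind is not a result of these libraries.

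The clones were made with Cas9 and these guides, shown because they separate the clones by cut site. Capitals mark the adjacent NGG motif.
Guide of clones A3 and E4: tggcaccgactgatagagctGGG
Guide of clone D12: acgcgtagccagtcttcaccAGG
In GENCODE release 29 on GRCh38 the guide of A3 and E4 matches chr7:23319200-23319219, in the coding part of exon 11 of 15 of IGF2BP3. That of D12 matches chr7:23469990-23470009, in the coding part of exon 1. Both guides read along the strand opposite to the transcript. The edited alleles were not analysed here.

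IGF2BP3 transcript was measured first. In parental DMSO libraries it stood at 80.6 and 73.6 CPM (counts scaled to equal library size) in sample 1 and at 81.6 and 71.5 CPM in sample 2. In knockout DMSO libraries it stood at 18.4 and 24.2 CPM in A3, 40.4 and 41.9 CPM in D12 and 19.5 and 20.8 CPM in E4. All knockout libraries lay below all parental ones in DMSO and in tunicamycin, where the means were 72.5 ± 1.97 CPM (SD, n = 4) in parental cells and 32.5 ± 13.6 CPM (SD, n = 6) in the knockout. A guide cut does not by itself remove the transcript, and protein was not measured here. In the change of IGF2BP3 mRNA with tunicamycin, all 6 knockout pairs lay above all 4 parental pairs, as for 0.509% of all genes. The log2 difference in response was 0.32 (SE 0.114), with an unadjusted p of 0.0104 and a Benjamini-Hochberg adjusted p of 1 in edgeR's quasi-likelihood fit, so it did not pass. IGF2BP2, the paralog, rose by 0.148 and 0.0815 on the log2 scale. IGF2BP1, the third family member, averaged under 1 CPM in each group.

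Total counts were 18265342 to 24913021 per library. Mitochondrial transcripts took 8.12% to 9.41% of the counts, with overlapping ranges in the 4 groups. Replicate 1 libraries had counts for fewer genes (21483 to 23139) than replicate 2 libraries (23592 to 24267), and each replicate number holds all lines and treatments. Of 9 epithelial markers 7 passed the filter on low counts, while VIL1 and CEACAM5 were at or near 0. Of the immune markers 0 of 5 passed, and of the stromal and endothelial markers 1 each (COL1A1 and VWF). The summed levels of each marker set overlapped between the genotypes within each treatment. Since these are bulk libraries, fewer responding cells and a smaller response per cell cannot be told apart.

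The response was broad in both genotypes. Of 15313 genes tested, 5756 (37.6%) changed in parental cells at an adjusted p below 0.05 in edgeR, 2680 of them upward (17.5%) and 3076 downward (20.1%). In the knockout 6366 (41.6%) changed, 3097 upward (20.2%) and 3269 downward (21.3%). These counts are not sizes, since the knockout had 6 pairs and the parental cells 4. Among genes with a mean count of at least 100, the 5 strongest parental rises were shared. DDIT3, the pro-apoptotic factor CHOP, rose from 2.13 ± 0.624 to 237 ± 29.6 CPM in parental cells (SD, n = 4) and from 2.82 ± 0.766 to 245 ± 33.1 CPM in the knockout (SD, n = 6). CHAC1, which degrades glutathione, rose by 5.44 and 5.60 on the log2 scale. DDIT4, an inhibitor of mTORC1, rose by 5.42 and 5.15, HERPUD1, a membrane component of the degradation machinery, by 5.27 and 5.12, and LURAP1L by 5.27 and 5.33. Among the strongest falls, BMP4, a secreted growth factor, went from 137 ± 5.68 to 31.1 ± 1.33 CPM in parental cells and from 141 ± 13.8 to 36.3 ± 5.95 CPM in the knockout. HSPA8, the constitutive cytosolic HSP70, had log2 changes of -1.77 and -1.76. LRFN1, KCNJ12 and ZNF503 also fell in both.

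Response size was then measured against an outside yardstick, so that noise of single genes in the parental libraries did not enter the axis. Noise in the parental pairs still enters their own sizes. The reference was the tunicamycin response of 2 clones with the paralog IGF2BP2 knocked out (B7 and F6, 8 libraries, none among the 20), for which the labels do not state dose and time. It supplied 6365 genes, 3014 that rose and 3351 that fell. The size of a pair is the slope of its log2 changes on the reference changes over those genes. The genes were called in the reference itself, so an equal response can give a slope below 1. Sizes were therefore compared only between pairs, not with the reference.

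Over all reference genes the parental pairs had sizes of 0.957 and 0.933 in sample 1 and 0.858 and 0.914 in sample 2. The knockout pairs had 0.853 and 0.914 in A3, 0.848 and 0.93 in D12, and 0.814 and 0.842 in E4. The groups overlapped: the lowest parental pair lay beside A3 and D12 of replicate 1, and only E4 lay below every parental pair in both replicates. The means were 0.916 ± 0.0422 (SD, n = 4) and 0.867 ± 0.045 (SD, n = 6), and their ratio, the slope of the knockout on the parental response, was 0.947. That is a response 5.3% smaller. The difference of -0.0485 had a p of 0.1 in an exact two-sided permutation test of the pairs (210 assignments, smallest possible p 0.00476, adjusted p 0.15 over 3 tests). Taken over lines it had an exact permutation p of 0.4, where the smallest possible is 0.1. The parental samples differed from each other by more than the groups did, with line means of 0.945 and 0.886 against 0.884 in A3, 0.889 in D12 and 0.828 in E4. The ratio was 0.979 without parental sample 1 and 0.917 without parental sample 2, and it was 0.924 in replicate 1 alone and 0.969 in replicate 2 alone.

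**Figure D1:**
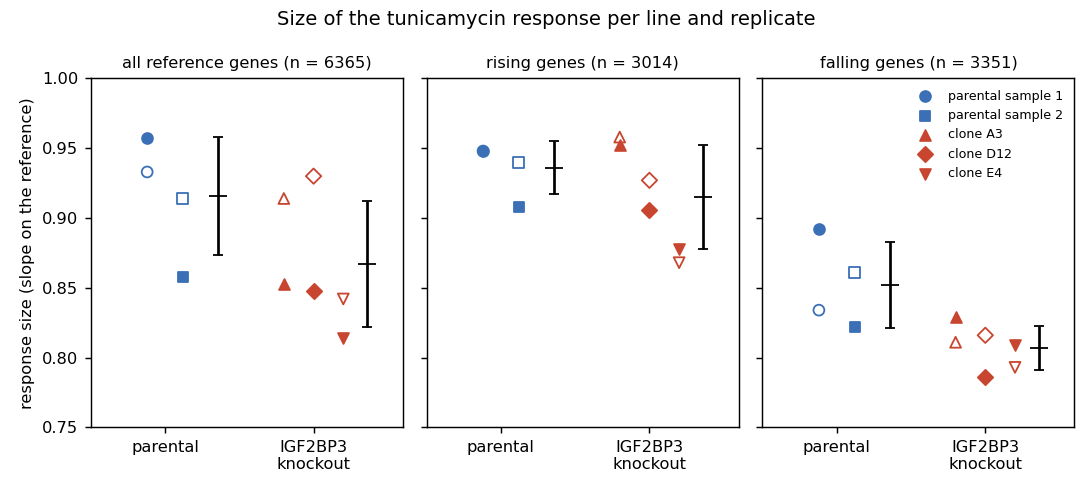
Response size of each pair (vertical axis from 0.75, slope of its log2 changes on the reference, no unit) over all, rising and falling reference genes; filled symbols are replicate 1, open symbols replicate 2, and bars give mean ± SD of 4 parental and 6 knockout pairs. The groups overlap in all 3 panels, most narrowly over the falling genes, where the means are 0.852 and 0.807.

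The sizes were also taken over rising and over falling genes. Over genes that rose, the sizes were 0.936 ± 0.0191 (SD, n = 4) and 0.915 ± 0.0371 (SD, n = 6), a ratio of 0.977 with an exact permutation p of 0.314. E4 was again lowest (0.878 and 0.868), while A3 (0.952 and 0.958) lay above every parental pair. Over genes that fell, the parental pairs had 0.892 and 0.834 in sample 1 and 0.822 and 0.861 in sample 2. The knockout pairs ran from 0.786 to 0.829, and a single knockout pair, A3 in replicate 1, overlapped the parental range. The means were 0.852 ± 0.0311 (SD, n = 4) and 0.807 ± 0.0157 (SD, n = 6), a ratio of 0.947, with an exact permutation p of 0.00952 and an adjusted p of 0.0286 over the 3 tests. This call was not stable. With pairs permuted only within their replicate number the p was 0.02 by exact permutation and the adjusted p 0.06, and over line means the exact permutation p was 0.1, the smallest that 5 lines allow. Whether rising and falling genes scaled differently from each other was not tested.

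In bins of the reference change, the knockout lay nearer to 0 on both sides. For genes the reference raised by 1 to 2 on the log2 scale, the median change was 1.32 in parental cells and 1.21 in the knockout, and 69.8% of those genes had the smaller change in the knockout. Above 2 the medians were 2.69 and 2.63, and 61.7% were lower. For genes lowered by more than 1 the medians were -1.09 and -1.06, and 35.6% had the lower value in the knockout. Between -0.5 and 0.5, where most genes sat, 45.9% were lower. The median changes of single pairs overlapped between the groups in every bin. Across the 6365 genes the fitted changes in the 2 genotypes had a Pearson r of 0.974, given as a description because genes are not independent, and 98.5% had the same sign.

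**Figure D2:**
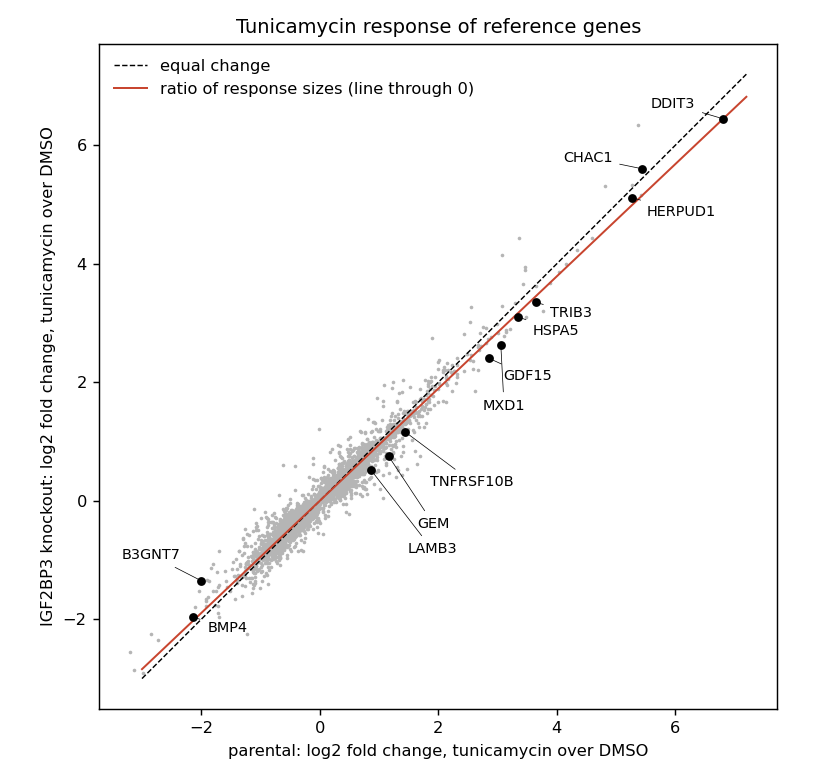
Log2 fold change in tunicamycin over DMSO for the 6365 reference genes, parental on the horizontal and IGF2BP3 knockout on the vertical axis; the dashed line marks equal change and the red line the ratio of response sizes, 0.947. The points follow both lines closely, and DDIT3 sits on the red line. GDF15, MXD1, GEM and LAMB3 sit below the red line, and CHAC1 and B3GNT7 above it.

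No single gene passed the test for a different response. The interaction of genotype and treatment called 0 of 15313 genes (0%) at an adjusted p below 0.05 by edgeR, and 522 (3.41%) had an unadjusted p below 0.05, 243 with a lower (1.59%) and 279 with a higher change (1.82%) in the knockout. DESeq2 with the same terms called 1 gene, TNFRSF10B (0.00653% of those tested). Over all genes 46.9% had a lower change in the knockout. In 68 genes (0.444%) all 6 knockout pairs lay below all 4 parental pairs, and in 78 (0.509%) above, 146 genes (0.953%) in all. Signs were then compared between replicates. Of 686 genes with an unadjusted p below 0.05 in replicate 1 alone, 58.7% had the same sign in replicate 2, and of 846 chosen in replicate 2, 50.4% had the same sign in replicate 1, against 49.1% of all genes.

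The genes described next had the 12 lowest p-values in each direction among genes with a mean count of at least 50. The p tests a departure from an equal change, not from the parental change scaled by 0.947. The genes were picked by it over both replicates together. Their separation and their shared sign between replicates therefore follow in part from the choice and are only described. Of the 12 with a lower change in the knockout, 9 rose in parental cells, 1 fell and 2 were not called. In 8 of them the pairs did not overlap (0.444% of all genes in this direction), and in all 12 the difference had the same sign in each replicate number. The difference ran from -0.22 (MIDEAS) to -0.45 (GDF15) on the log2 scale.

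HSPA5 encodes BiP, the main chaperone of the endoplasmic reticulum and the sensor partner of all 3 UPR arms. In DMSO its level was alike, 979 ± 119 CPM in parental cells (SD, n = 4) and 978 ± 83.9 CPM in the knockout (SD, n = 6). In tunicamycin it reached 10990 and 9881 CPM in parental sample 1 and 9796 and 9269 CPM in sample 2. In the knockout it reached 9060 and 8099 CPM in A3, 8738 and 8466 CPM in D12, and 8038 and 7912 CPM in E4. All knockout libraries in tunicamycin lay below all parental ones, as for 295 genes (1.93%) overall. The pair changes were 3.17 to 3.45 in parental cells and 2.98 to 3.21 in the knockout, so 1 parental pair fell within the knockout range. The log2 difference was -0.25 (SE 0.0562, unadjusted p 0.000197, adjusted p 0.604 by edgeR). The adjusted p by edgeR was 1.7e-05 with no filter on low counts and 0.00199 in replicate 2 alone. Replicate 1 alone called 0 genes, and why the filter changed the adjusted p was not tested. Scaling the parental change of 3.35 by 0.947 gives 3.18, and the knockout's 3.10 deviated from that by -0.0736. The reference clones had a mean change of 3.38.

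MIDEAS, a subunit of a histone deacetylase complex, behaved in the same way, with 59.7 ± 2.05 and 59.9 ± 3.72 CPM in DMSO and 158 ± 5.64 against 136 ± 8.08 CPM in tunicamycin (SD, n = 4 and 6). GEM, a small GTPase that restrains voltage-gated calcium channels, went from 11.1 ± 0.349 to 24.9 ± 1.05 CPM in parental cells and from 10.5 ± 1.6 to 17.8 ± 3.35 CPM in the knockout. Its pair changes were 1.07 to 1.2 in parental cells and 0.596 to 0.863 in the knockout, and clone D12 had the lowest tunicamycin levels, 12.8 and 14.8 CPM. TRIM8, a ubiquitin ligase, had equal levels in DMSO (55.4 ± 4.51 and 56.2 ± 5.4 CPM) and 79.8 ± 10.9 against 66.7 ± 6.22 CPM in tunicamycin, with overlap. In HSPA5 and these 3 genes the DMSO levels overlapped between the genotypes.

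TNFRSF10B encodes the death receptor DR5, a target of CHOP and of p53. In DMSO it was at 139.6 and 149.8 CPM in parental sample 1 and 147.8 and 152.4 CPM in sample 2. In the knockout it was higher in every library, at 163.8 and 172.5 CPM in A3, 160.4 and 165.8 CPM in D12, and 177.9 and 188.9 CPM in E4, as for 263 genes (1.72%) overall. In tunicamycin the levels overlapped, 401 ± 24 CPM in parental cells (SD, n = 4) and 384 ± 28.8 CPM in the knockout (SD, n = 6). The log2 change was thus 1.44 ± 0.0833 in parental pairs and 1.16 ± 0.0909 in knockout pairs (SD), with no overlap. The difference was -0.28 (SE 0.0545, unadjusted p 4.23e-05, adjusted p 0.265 by edgeR, 0.033 with no filter on low counts, 0.0486 by DESeq2), the lowest p in the edgeR fit, and it lay -0.202 from the scaled response. The reference clones had 1.30, between the groups.

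GDF15, a secreted stress cytokine that ATF4, CHOP and p53 induce, showed the same shape with a larger gap. In DMSO it stood at 48.0 ± 3.29 CPM in parental cells (SD, n = 4) and 75.6 ± 5.42 CPM in the knockout (SD, n = 6), with no overlap. In tunicamycin it stood at 348 ± 12.8 and 406 ± 87.4 CPM, where A3 and D12 (404.9 to 528.4 CPM) lay above all parental libraries and E4 (320.1 and 295.2 CPM) below all of them. Pair changes were 2.78 to 2.98 in parental cells, 2.7 and 2.5 in A3, 2.58 and 2.36 in D12, and 2.16 and 2.08 in E4. The difference was -0.45 (SE 0.111, unadjusted p 0.00052, adjusted p 0.996 by edgeR). The adjusted p by edgeR was 5.28e-08 with no filter on low counts and 0.0123 in replicate 2 alone. Replicate 1 alone called 0 genes, and why the filter changed the adjusted p was not tested. The difference was -0.33 without E4 and -0.56 without A3.

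LAMB3, a laminin chain, had 55.6 ± 8.3 and 79.3 ± 12.3 CPM in DMSO and 101 ± 14.1 and 114 ± 18.4 CPM in tunicamycin, and pair changes that did not overlap (0.771 to 0.954 and 0.427 to 0.611). TRIB3, a pseudokinase induced by CHOP that restrains ATF4, changed by 3.65 ± 0.0237 in parental pairs and 3.35 ± 0.138 in knockout pairs (SD), with 34.6 against 39.5 CPM in DMSO and 435 against 402 CPM in tunicamycin. Scaling its parental change gives 3.46, and the knockout deviated from that by only -0.106. MXD1, a partner of MAX that opposes MYC, had changes of 3.06 and 2.63. ATF3, a stress transcription factor of the PERK list, stood at 11 and 16 CPM in DMSO without overlap and at 124 and 139 CPM in tunicamycin with overlap. Its pair changes overlapped, and it was not among the 12 genes with the lowest p. In the main edgeR fit LAMB3, TRIB3 and ATF3 did not pass. The unadjusted p there was 0.00105 for TRIB3 and 0.00739 for ATF3. With no filter on low counts the adjusted p by edgeR was 0.0101 for LAMB3, 0.0364 for TRIB3 and 0.0398 for ATF3.

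In the transcription factors FOXC1 and NR2F1 the knockout was lower in both treatments. FOXC1 fell by 0.42 and by 0.76 on the log2 scale, from 41.9 ± 2.69 to 31.3 ± 2.04 CPM in parental cells (SD, n = 4) and from 31.2 ± 3.7 to 18.4 ± 2.87 CPM in the knockout (SD, n = 6). NR2F1 stood at 85.5 and 91.5 CPM in parental cells and 54.6 and 49.3 CPM in the knockout. Lower levels in DMSO without overlap were seen in 471 genes (3.08%) overall. CITED2, a coactivator, had 29.1 and 29.8 CPM in parental cells and 24.3 and 20.3 CPM in the knockout.

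**Figure D3:**
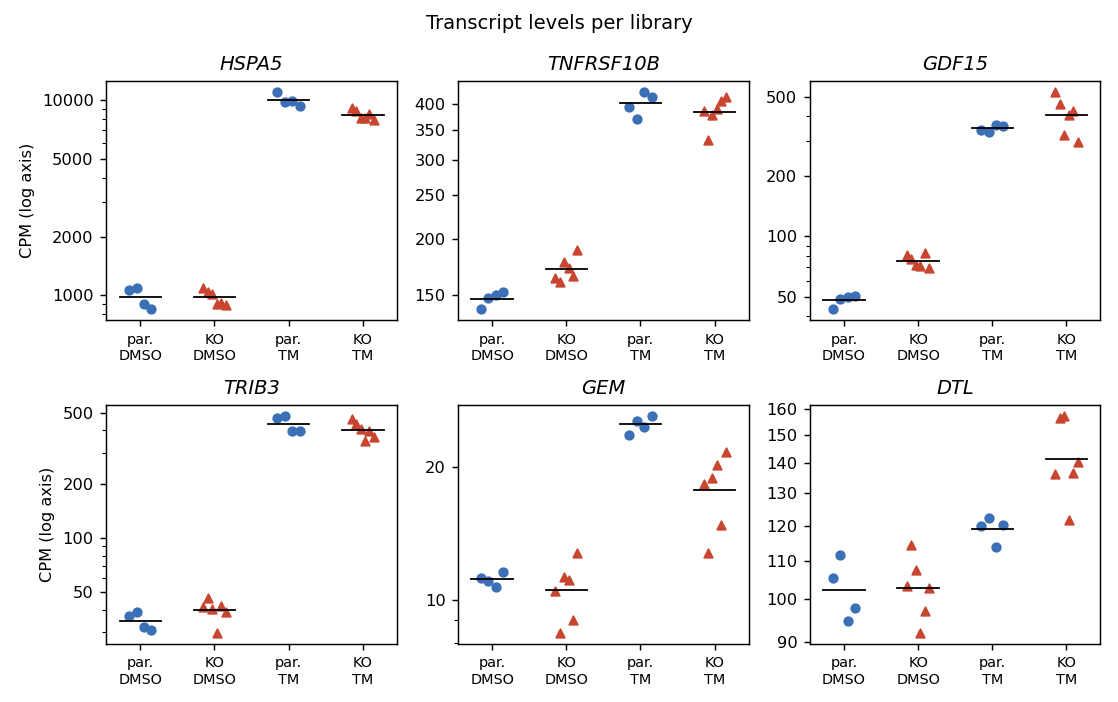
Levels in CPM on a log axis, each panel with its own range, for each library of parental (par., circles) and IGF2BP3 knockout (KO, triangles) cells in DMSO and tunicamycin (TM), with bars at the group means. HSPA5 and GEM differ between genotypes in tunicamycin, TNFRSF10B and GDF15 in DMSO, and DTL has 119 against 141 CPM in tunicamycin.

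Of the 12 genes with a higher change in the knockout, 10 fell in parental cells and 2 rose, and in the knockout 6 fell and 2 rose. In 7 the pairs did not overlap (0.509% of all genes in this direction), and in all 12 the sign was the same in each replicate number. None belonged to a gene list used here. DTL, a substrate receptor that marks replication licensing factors for degradation, had 102 ± 7.53 and 103 ± 7.82 CPM in DMSO and 119 ± 3.64 and 141 ± 13.6 CPM in tunicamycin (SD, n = 4 and 6). Its pair changes were 0.131 to 0.299 in parental cells and 0.401 to 0.548 in the knockout, a difference of 0.24 (SE 0.0517, unadjusted p 0.000151, adjusted p 0.58 by edgeR). PLA2G4A, cytosolic phospholipase A2, fell from 14.8 ± 0.893 to 11.3 ± 0.647 CPM in parental cells, while the knockout had 14.8 CPM in both treatments. ZBED2, a zinc finger regulator, fell in both and stayed higher in the knockout in tunicamycin (34.7 ± 9.09 against 21.9 ± 1.13 CPM). In tunicamycin a higher level without overlap was seen in 183 genes (1.20%) overall. B3GNT7, a glycosyltransferase, fell by 2.00 and by 1.35 on the log2 scale, from levels under 5 CPM. GZF1, a zinc finger factor, rose by 1.02 and 1.22. The others were ZNF367, FGF9, NKX6-1, ZNF512B, SH3TC2, CASKIN2 and DGKQ, with differences between 0.21 and 0.57.

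**Figure D4:**
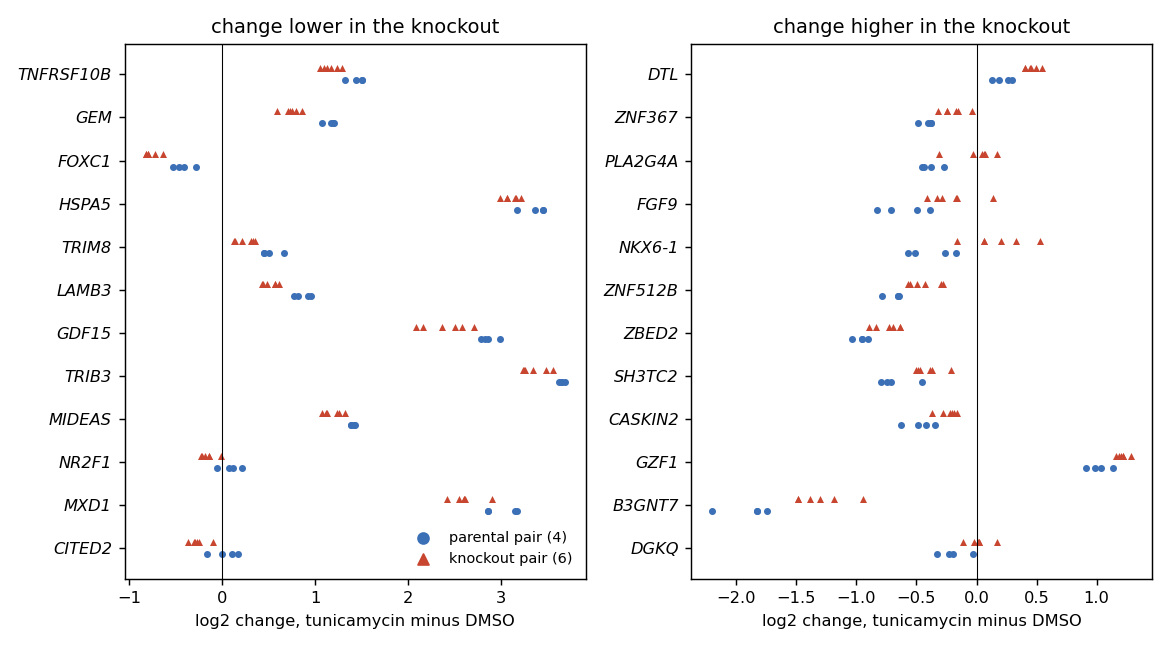
Log2 change (tunicamycin minus DMSO, horizontal axis) of each parental pair (circles, 4) and knockout pair (triangles, 6) for the 12 genes with the lowest p in each direction. Pairs do not overlap in 8 genes on the left and 7 on the right; GDF15 and TRIB3 lie far from 0 while DTL and NR2F1 lie near it.

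The UPR genes were then read arm by arm from lists chosen with earlier results of these data known. In the ATF6 and chaperone list all 16 genes rose in both genotypes, and all 16 had the smaller change in the knockout, against 46.9% of all genes. In the bins of genes that the reference raised by more than 0.5, that share was 61.6% to 69.8%. The median change was 1.84 in parental cells and 1.70 in the knockout, and the median difference was -0.14, against 0.00697 over all genes. None passed the adjusted test, and 8 of 16 had an unadjusted p below 0.05 by edgeR (1.59% of all genes in this direction). Among genes the reference raised by 1 to 2, a closer comparison, 38 of 262 had such a p in either direction. In 3 of 16 (CALR, PDIA4 and HYOU1) the knockout pairs lay below without overlap (0.444% of all genes). CALR, a calcium-binding chaperone of glycoproteins, changed by 1.32 ± 0.0425 and 1.17 ± 0.0627 (SD, n = 4 and 6 pairs). PDIA4, a disulfide isomerase, changed by 1.51 ± 0.0312 and 1.36 ± 0.0526, and HYOU1, a nucleotide exchange factor for BiP, by 2.32 ± 0.0218 and 2.14 ± 0.0976. CANX, the membrane partner of CALR, was closest to equal (-0.0063). The mean change over the list was 1.91 to 2.06 in parental pairs and 1.85 to 1.95 in knockout pairs, a ratio of 0.939. All reference genes that rose had a ratio of 0.949 by the same measure.

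In the IRE1 and XBP1 list 21 of 23 genes rose in each genotype, and 18 had a lower change in the knockout. The median difference was -0.033, or -0.0655 without parental sample 2 and -0.026 without parental sample 1. XBP1 itself had the largest of the 5 higher changes; those of SEC61B, SEC62, SRPRB and SEC63 were at most 0.0241. It rose from 60.3 ± 4.16 to 258 ± 32.6 CPM in parental cells (SD, n = 4) and from 53.5 ± 3.07 to 257 ± 26.4 CPM in the knockout (SD, n = 6), a difference of 0.17 (SE 0.0746, unadjusted p 0.0368, adjusted p 1 by edgeR). DNAJB9, a BiP co-chaperone, changed by 4.04 and 3.86, and SEC61A1, the channel subunit, by 0.616 and 0.513 without overlap of the pairs. Splicing of XBP1 was not measured in these gene counts. ERN1, which encodes the IRE1 sensor, rose by 0.868 and 0.683, and reached 43.8 and 36.8 CPM in tunicamycin without overlap. EIF2AK3, encoding PERK, rose by 2.89 and 2.77, and ATF6 by 0.52 and 0.523.

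In the PERK, ATF4 and CHOP list all 31 genes tested rose in both genotypes. Of these 26 had a lower change in the knockout, and the median difference was -0.077, or -0.14 without clone A3 and -0.0635 without D12. The genes spread more widely than in the chaperone list, from -0.45 (GDF15) to 0.23 (ASNS). ATF4 changed by 1.25 ± 0.0318 and 1.15 ± 0.112 (SD). MTHFD2, a mitochondrial folate enzyme, also had pairs that did not overlap, with a difference of -0.10. ASNS (asparagine synthetase), JDP2 (a repressor of AP-1), CHAC1, STC2 (a secreted glycoprotein) and PHGDH (serine synthesis) had the higher change in the knockout, and none of the 5 had an unadjusted p below 0.05. From the parental change scaled by 0.947, CHAC1 deviated by 0.447 and ASNS by 0.407, while GDF15 deviated by -0.303 and TNFRSF10B by -0.202. These deviations were not tested. Over the 3 arms together, 60 of 70 genes had a lower change in the knockout (46.9% of all genes). Of these, 16 had an unadjusted p below 0.05 by edgeR (1.59% of all genes), and 1 gene, XBP1, had such a p in the other direction. Most listed genes rose, so genes that the reference raised are a closer comparison. In its bins of 0.5 to 1, 1 to 2 and over 2, 61.6%, 69.8% and 61.7% were lower. In the 1 to 2 bin, 38 of 262 genes had an unadjusted p below 0.05 by edgeR in either direction. List means had a knockout to parental ratio of 0.948 (IRE1 and XBP1) and 0.958 (PERK). All reference genes that rose had 0.949.

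Of the p53 targets 11 of 17 genes had a lower change (46.9% of all genes), 6 of them with an unadjusted p below 0.05 (1.59% of all genes). GDF15 and TNFRSF10B are 2 of these 6; they also stand in the PERK list and among the genes with the lowest p. CDKN1A, the cell cycle inhibitor p21, rose by 0.614 and 0.418, from 123 and 170 CPM in DMSO, where the knockout was higher without overlap, to 188 and 227 CPM. BBC3, the pro-apoptotic PUMA, rose by 1.72 and 1.43, with 5.52 and 7.21 CPM in DMSO. BTG2, which restrains proliferation, fell by 0.85 and by 1.05 on the log2 scale. In the replication and mitosis list 6 of 20 had a lower change and the median difference was 0.032, or 0.0030 without clone E4. CCNE1, a cyclin of S phase entry, fell by 0.78 and by 0.58 on the log2 scale. DUSP1, a phosphatase of MAP kinases in the immediate early list, rose by 1.79 and 1.31 from 9.14 and 9.22 CPM, but the knockout pairs ran from 0.648 to 1.98 and overlapped the parental pairs; its adjusted p by edgeR was 1, or 0.0433 with no filter on low counts. The cytosolic heat shock, degradation (ERAD), cholesterol and BMP lists had median differences between -0.025 and 0.0098, and leaving out a line turned the sign in each of them but ERAD.

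**Figure D5:**
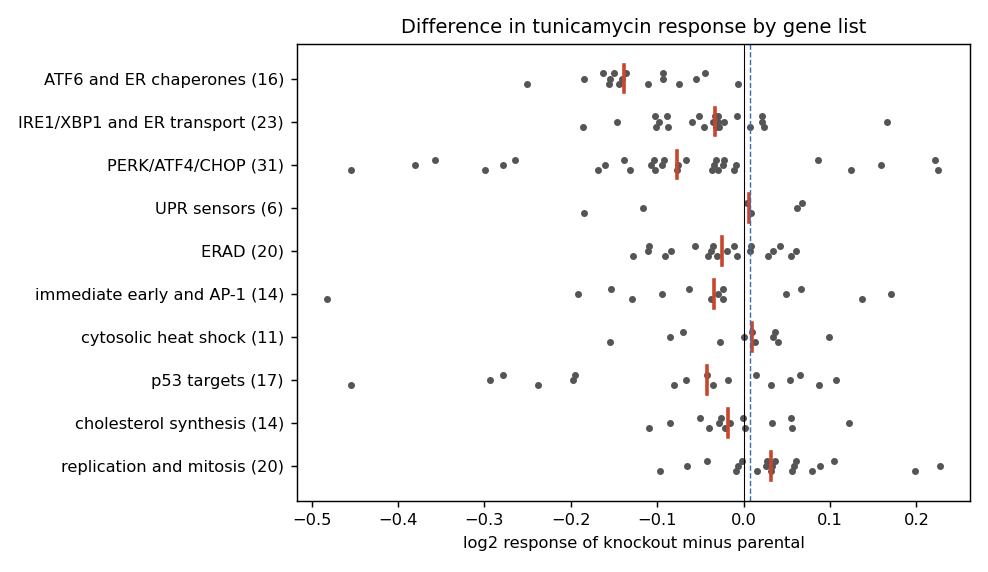
Difference in log2 response (knockout minus parental) of each gene, grouped by list with the number of genes tested; red bars are list medians and the blue dashed line is the median of all genes tested, 0.00697. All 16 chaperone genes lie left of 0, the PERK list spreads from -0.454 to 0.225, and the replication list lies mostly right of 0.

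Grouping by promoter sequence used no measured value. Promoters of 27305 genes (RefSeq, GRCh38.p14, 250 bases before to 50 after the start) were searched on both strands for ERSE (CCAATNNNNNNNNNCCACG), UPRE (TGACGTGG) and CARE (TGATGNAA), and 10780 matched a tested gene by symbol. The letters CCACG end ERSE and open the reverse complement of UPRE, so these can overlap. ERSE, the element that ATF6 and NF-Y bind, was in 22 promoters (0.0806%), UPRE in 217 (0.795%) and CARE, an ATF4 element, in 1003 (3.67%). The windows from 150 to 31 bases before the start are shown for 3 genes with ERSE and for ASNS with CARE, because the differences between the genotypes had opposite signs among them. Capitals mark the match, which is on the reverse strand in CRELD2.
HSPA5: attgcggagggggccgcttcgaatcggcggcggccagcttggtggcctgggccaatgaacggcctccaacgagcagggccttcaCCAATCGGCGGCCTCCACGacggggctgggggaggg
CRELD2: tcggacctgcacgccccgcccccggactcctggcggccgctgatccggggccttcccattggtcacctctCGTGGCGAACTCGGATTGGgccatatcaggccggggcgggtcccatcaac
XBP1: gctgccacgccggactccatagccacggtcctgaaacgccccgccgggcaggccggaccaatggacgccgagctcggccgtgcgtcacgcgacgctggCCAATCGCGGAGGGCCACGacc
ASNS: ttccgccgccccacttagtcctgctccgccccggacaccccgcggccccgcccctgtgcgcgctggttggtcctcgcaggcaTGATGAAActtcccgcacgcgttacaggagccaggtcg
They lie at chr9:125241374-125241493 (HSPA5, minus strand), chr22:49918484-49918603 (CRELD2, plus strand), chr22:28800600-28800719 (XBP1, minus strand) and chr7:97872439-97872558 (ASNS, minus strand). A match is not evidence of binding.

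Of 15 tested genes with ERSE, 12 rose in parental cells and 13 in the knockout, against 19.1% and 22.2% of all 10780. In 11 of the 15 the change was lower in the knockout, against 46.4% of all 10780. The median difference was -0.098, with median changes of 1.32 and 1.17. Of all genes that the reference raised by 1 to 2, 69.8% were lower, with a median difference of -0.0898. HSPA5 (-0.25), HSP90B1 (-0.16), CALR (-0.14) and CRELD2 (-0.11) were among the lower, and XBP1 (0.17), with the same letters, was higher. Genes with UPRE had a median difference of -0.009 (102 genes) and those with CARE 0.001 (181 genes), against 0.0072 over all 10780. CARE was in the promoters of both ASNS (0.23) and ATF3 (-0.38), which lay on opposite sides.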

How the data were processed

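Poly(A) RNA was sequenced as paired reads of 100 bases from a directional kit, per the labels' protocols. The deposited table holds the authors' raw counts per gene for 60660 identifiers, 42022 of them with a symbol in the name table. STAR 2.7.5c and hg38 are named in the submitters' processing notes; the counting tool, annotation and use of strand are not given in the sources used here, so overlapping and antisense genes are uncertain. Groups came from sample titles. The members and gene lists were chosen with earlier results of these data known.

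Counts were fitted with edgeR 4.0.16 in R 4.3.3 (TMM, filterByExpr, quasi-likelihood test, Benjamini-Hochberg adjustment over 15313 genes, threshold 0.05) with line and replicate number as terms and 1 tunicamycin term per genotype; the interaction is their difference. CPM are TMM-normalized. Pair changes are log2 CPM differences with a prior count of 2. Clone G6 of the IGF2BP2 knockout was left out of the reference because its control libraries carry contradicting treatment labels. Named genes were the IGF2BP family, any gene called for the interaction, the 12 lowest interaction p-values in each direction with a mean count of at least 50, the 5 largest parental rises and falls with a mean count of at least 100, and members of 18 lists (202 of 226 genes tested). Deviations of same-numbered libraries from their line and treatment means correlated at 0.112 to 0.568 in 45 of 45 pairings, above the 0.1 asked for, so the replicate number paired the libraries. Replicates differed beyond counting noise (chi-square per degree of freedom 5.24 to 25.2). Alternatives were DESeq2 1.42.0, its size factors, other filters, references and slopes, fits without the replicate term, with counts summed per line or with each replicate alone, and each line or pair left out.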

Additional observations from a re-analysis of the deposited data

Results flagged for a closer look

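The difference in response size over falling genes passed the permutation test between the groups, at -0.045 (0.852 in parental and 0.807 in knockout pairs). It is singled out because it was the only 1 of the 3 response sizes that did, and its dependence on the settings is given in the next part. Among 54 sets of values of single genes and groups looked at for a sample apart, 1 had one: the log2 change of ZNF512B, a zinc finger gene, was -0.789 in replicate 2 of parental sample 1, against -0.656 for the nearest of the other 3 parental pairs. Chance alone sets a sample apart in about 1 of 20 such sets.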

How the results depend on the processing

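The slope of the knockout on the parental response was below 1 in all alternatives run: 0.951 with a prior count of 0.5, 0.957 with clone G6 in the reference, 0.931 by ordinary and 0.955 by total least squares, and 0.917 to 0.979 leaving out a line or pair. Noise in the parental values pulls the ordinary slope towards 0, so it can lie below 1 even for equal responses. The smaller size over falling genes kept its sign but lost its call over all genes (-0.0501), with reference changes beyond 1 (-0.0821), a mean CPM of at least 10 (-0.0309), a replicate block (-0.045, adjusted p 0.06 by exact permutation), replicate 1 alone (-0.0487) and replicate 2 alone (-0.0414). Leaving out a line or pair gave -0.0558 to -0.0318 and lost the call in 11 of 15 cases, all 5 lines among them (adjusted p 0.0536 to 0.321 by exact permutation). Over rising genes with reference changes beyond 1 the difference reversed to 0.0195. The interaction called 1 gene by DESeq2 (322 at an unadjusted p below 0.05) and 0 without the replicate block (255 unadjusted). It called 0 in replicate 1 alone and 2 in replicate 2 alone (HSPA5 and GDF15). With no filter on low counts it called 8, all lower in the knockout: GDF15, HSPA5, LAMB3, TNFRSF10B, TRIB3, ATF3, DUSP1 and MBNL2. MBNL2 was named after its values were seen. With no filter HSPA5 had an adjusted p of 1.7e-05 by edgeR against 0.604 with the filter. The cause was not tested for any of the 8. Leaving out a line or pair left 0 calls. The parental response called 3310 genes without parental sample 1 and up to 6080 in the other such fits. The PERK list median was -0.136 without clone A3 and -0.0635 without D12. The difference for IGF2BP1, under 1 CPM, was -0.31 and ran from -0.595 without parental sample 2 to 0.024 and 0.0921 without libraries of parental sample 1 and was 0.245 in replicate 2 alone. With 5 lines no exact permutation test of the line means can go below 0.1, and the 3 clones come from 2 guides.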
